A study of Homo sapiens with 17 samples.

Results

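The enzymes that turn farnesyl diphosphate into cholesterol by way of squalene were followed in Jurkat cells treated with ILT3.Fc. Jurkat is an established leukaemia line of human T cell origin. The 9 genes are, in pathway order, FDFT1, SQLE, LSS, CYP51A1, MSMO1, NSDHL, HSD17B7, EBP and DHCR7. The rule that defines the set is the symbol, by place in the sterol branch, and holds no measured value. All 9 are among the 25548 symbols of the table and among the 12015 genes with a mean of at least 1 FPKM that were tested. ILT3.Fc is a soluble fusion of the outer domains of ILT3, an inhibitory receptor encoded by LILRB4, with the Fc piece of an antibody, and the study sought the regulator of the response. Cells received 0, 12.5 or 25 µg/ml of the protein for 6, 12 or 24 h, and polyadenylated RNA was sequenced. Each of these 9 groups held 2 libraries, except untreated cells at 12 h, with 1 library. Nothing in the labels tells whether duplicates came from separate cultures, and p-values therefore measure only the spread between these libraries, which may be technical. The untreated cells are called so as the zero dose, since the labels name no control Fc protein. A gene was called at a limma adjusted p under 0.05 over all genes tested.

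FDFT1, squalene synthase, commits farnesyl diphosphate to sterols. SQLE, squalene epoxidase, adds oxygen to squalene, and LSS, lanosterol synthase, closes the sterol rings. CYP51A1, MSMO1, NSDHL and HSD17B7 then strip methyl groups from lanosterol, EBP shifts a ring double bond and DHCR7 reduces a ring double bond. In mammalian cells the whole branch is transcribed under SREBP2, which is held in the endoplasmic reticulum when membranes hold enough sterol. Dividing lymphocytes need this supply for new membrane.

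The libraries differed little in overall composition. Summed FPKM ranged from 504363 to 557389, 11842 to 12016 genes reached 1 FPKM, and relative depth went down to 0.674 of the deepest library, while the absolute depth is unknown. The 9 genes read for T cell leukaemia, T cell genes such as CD3D and LCK with the leukaemia factor TAL1, lay between 26.5 and 652 FPKM. Of 12 markers of other cell types, 10 stayed below 1 FPKM in every library, 3 of them listed at 0. The exceptions were CD79A, a B cell marker, at 33.4 to 48.1 FPKM, and NKG7, an NK cell marker, at 3.50 FPKM or more. Sequencing lane was partly tied to time, with lane 4 holding the 24 h libraries and lane 5 the 12 h ones, while each 6 h group was split, replicate 1 in lane 4 and replicate 2 in lane 5. Departures from the mean library tracked gene length (Spearman -0.60 across genes) in replicate 1 of the 6 h cells at 12.5 µg/ml. They tracked GC content (Spearman 0.56 across genes) in replicate 2 of the 24 h cells at 25 µg/ml. These were the strongest trends, by which the 2 libraries are named below, but others were not free of them. For GC content, replicates 1 and 2 had 0.03 and -0.37 in untreated cells at 24 h and 0.13 and 0.56 at 25 µg/ml. At 6 h they had 0.12 and 0.07 in untreated cells and -0.23 and -0.28 at 25 µg/ml. The GC trend thus differed between doses, in opposite directions at 6 and 24 h.

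FPKM is per length of gene model, so the enzymes can be ranked against each other. FDFT1 was the most abundant, with a mean of 219 FPKM over the 17 libraries. EBP (60.3 FPKM), DHCR7 (50.5 FPKM), SQLE (48.8 FPKM) and LSS (41.8 FPKM) formed a middle range, and the ranges of neighbours in this order overlapped. MSMO1 averaged 33.4 FPKM, NSDHL 23.5 FPKM and HSD17B7 19.1 FPKM. CYP51A1 was the scarcest at 4.11 FPKM, and no library of any other enzyme came down to its highest value of 6.81 FPKM. The order of the levels thus did not follow the order of the steps. CYP51A1 had the widest span, its highest library standing 2.50 times above its lowest, followed by MSMO1 at 2.33 times, while EBP had the narrowest at 1.41 times.

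Some counts may be shared with other transcripts or lost to them, which limits the ranking above, that of CYP51A1 included. In GENCODE v29 (GRCh38), 2844 exonic bases of CYP51A1 lie also in AC000120.2 on the same strand, and LSS and FDFT1 overlap exons of opposite-strand genes that are not in the deposited table. The use of strand is not stated, so reads of such partners cannot be told apart. HSD17B7 has a near-identical copy, HSD17B7P2, which was listed at 2.87 to 5.62 FPKM, and how the authors' counting split reads between them is not known. HSD17B7P2 differed by 0.35 on the log2 scale between 25 and 0 µg/ml at 24 h, short of the threshold (limma adjusted p = 0.254).

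The promoters of the enzymes are shown because the genes moved together. RefSeq windows of 300 bases (GRCh38.p14, 250 bases before to 50 after the transcript start) were used for 7 of the 9 genes, with 8 windows in all because DHCR7 has a pair of starts. FDFT1 and SQLE were left out of the search. Both strands were searched for the core of the sterol regulatory element, TCACNCCAC, for the CCAAT box bound by NF-Y, and for the GC box GGGCGG bound by SP factors. NSDHL (chrX:152830813-152831112, plus strand), MSMO1 (chr4:165327419-165327718, plus strand) and EBP (chrX:48521558-48521857, plus strand) are printed for the most CCAAT matches, HSD17B7 (chr1:162790452-162790751, plus strand) for its values at 6 h, and CYP51A1 (chr7:92134428-92134727, minus strand) as the gene without a CCAAT match. They run 5′ to 3′, and capitals mark CCAAT or GGGCGG on either strand.
NSDHL: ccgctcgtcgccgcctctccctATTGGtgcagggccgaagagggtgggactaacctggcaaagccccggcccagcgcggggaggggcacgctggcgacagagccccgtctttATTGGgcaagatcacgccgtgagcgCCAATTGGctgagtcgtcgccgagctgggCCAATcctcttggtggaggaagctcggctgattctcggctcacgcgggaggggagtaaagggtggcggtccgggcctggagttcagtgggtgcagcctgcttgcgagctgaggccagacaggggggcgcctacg
MSMO1: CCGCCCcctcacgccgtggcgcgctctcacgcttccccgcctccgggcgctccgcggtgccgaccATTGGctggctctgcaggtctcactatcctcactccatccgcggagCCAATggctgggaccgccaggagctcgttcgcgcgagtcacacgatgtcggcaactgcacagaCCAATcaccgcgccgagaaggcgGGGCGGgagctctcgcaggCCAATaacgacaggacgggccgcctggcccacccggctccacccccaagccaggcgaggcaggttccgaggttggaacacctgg
EBP: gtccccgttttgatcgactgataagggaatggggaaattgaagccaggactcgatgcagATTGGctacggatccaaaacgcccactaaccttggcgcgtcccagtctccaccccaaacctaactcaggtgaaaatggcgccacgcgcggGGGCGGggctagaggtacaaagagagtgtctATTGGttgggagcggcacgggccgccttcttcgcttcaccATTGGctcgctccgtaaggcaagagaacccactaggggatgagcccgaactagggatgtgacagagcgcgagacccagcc
HSD17B7: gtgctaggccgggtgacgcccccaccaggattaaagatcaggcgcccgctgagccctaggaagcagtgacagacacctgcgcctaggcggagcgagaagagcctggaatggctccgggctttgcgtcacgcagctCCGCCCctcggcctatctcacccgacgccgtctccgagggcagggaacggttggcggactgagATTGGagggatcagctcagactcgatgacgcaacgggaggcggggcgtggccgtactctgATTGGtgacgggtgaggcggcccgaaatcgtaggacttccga
CYP51A1: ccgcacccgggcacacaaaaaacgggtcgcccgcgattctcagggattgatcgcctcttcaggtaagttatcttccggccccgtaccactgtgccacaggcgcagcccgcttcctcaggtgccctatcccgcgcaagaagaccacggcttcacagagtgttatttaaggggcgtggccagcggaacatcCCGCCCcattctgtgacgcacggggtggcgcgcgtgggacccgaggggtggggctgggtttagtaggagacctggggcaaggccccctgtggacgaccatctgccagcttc
NSDHL held 5 CCAAT matches, 2 of them overlapping on opposite strands, MSMO1 4, EBP 3, HSD17B7 2 and CYP51A1 0. MSMO1 held 2 GC boxes, EBP, HSD17B7 and CYP51A1 1 each, and NSDHL 0. Of the pair of DHCR7 windows, 1 held neither motif. CCAAT was found in 6 of the 7 genes, against 34.6% of all 35116 RefSeq windows and 35.3% of the 11682 windows of tested symbols. GGGCGG was found in 6 of the 7 genes, all but NSDHL, against 45% of all windows and 66.8% of those of tested symbols. TCACNCCAC was in 0 of the 7, against 1.13% of all windows. The enzymes are counted by gene and the backgrounds by window. A match says only that these letters are present. With the sterol core so rare among all windows, 0 in so few genes does not tell whether sterol elements are missing.

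All 9 enzymes were higher at 25 than at 0 µg/ml after 24 h. The difference passed the limma threshold for 9 of 9, where 10.7% of all genes tested were called higher, and the median log2 difference was 0.50 for the enzymes and 0.04 for all genes. MSMO1 and CYP51A1 had the largest differences, and EBP and SQLE the smallest. In bulk RNA, more RNA per cell and more cells of a kind cannot be told apart. A log2 difference is on the log2(FPKM + 1) scale, which understates the change of a low gene such as CYP51A1.

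**Figure D1:**
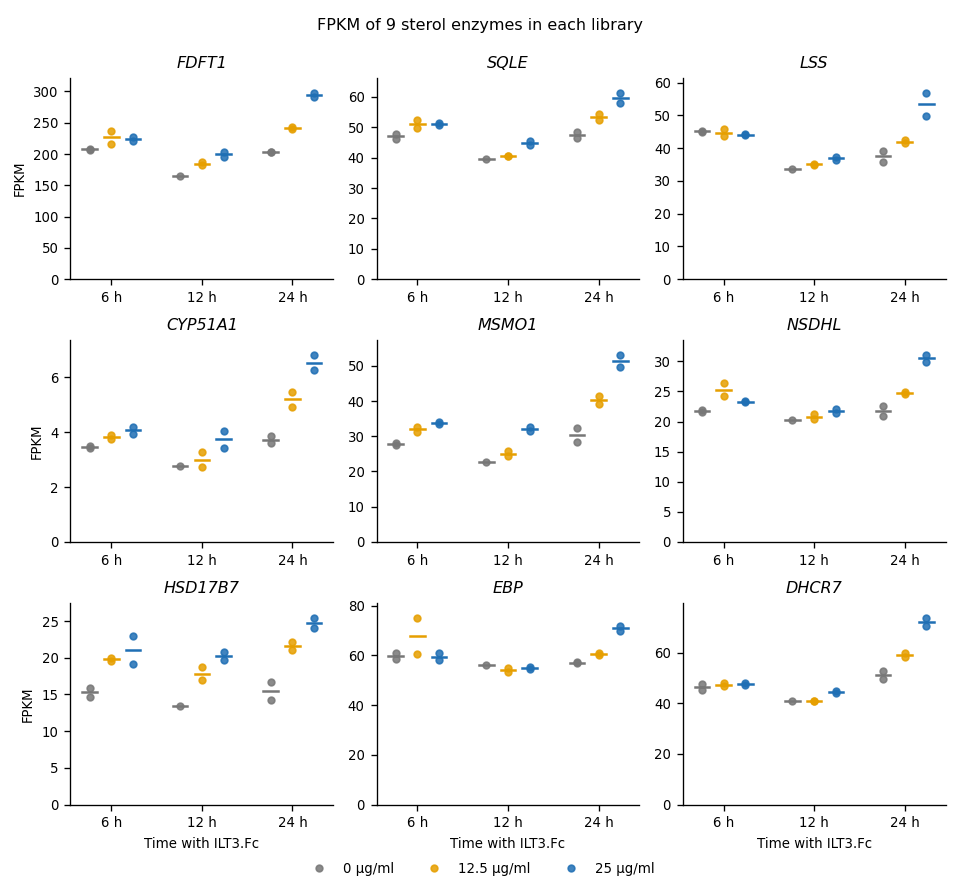
FPKM (vertical axes, from 0) of each of the 9 enzymes in all 17 libraries, by time with ILT3.Fc (horizontal axes), in grey for 0, orange for 12.5 and blue for 25 µg/ml. Points are libraries and bars are group means. At 24 h the points climb with dose in every panel, while at 6 h CYP51A1 and MSMO1 are the 2 of 9 in full dose order.

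The early enzymes make squalene and close it into lanosterol. At 24 h FDFT1 had 203 and 202 FPKM in untreated cells, 244 and 239.8 FPKM at 12.5 µg/ml, and 298 and 291 FPKM at 25 µg/ml. Every dose was clear of the one below it. FDFT1 was 1.45 times higher at 25 µg/ml than at 0, a log2 difference of 0.54 ± 0.043 (SE, limma adjusted p = 9.83e-05). SQLE, often the slow step of the branch, had 46.6 and 48.5 FPKM in untreated cells, 52.5 and 54.2 FPKM at 12.5 µg/ml, and 61.4 and 57.9 FPKM at 25 µg/ml. Its groups did not overlap, and the log2 difference between 25 and 0 µg/ml was 0.32 ± 0.042 (adjusted p = 0.00104). LSS had 39.3 and 35.7 FPKM in untreated cells, 42.5 and 41.5 FPKM at 12.5 µg/ml, and 49.8 and 57.0 FPKM at 25 µg/ml. Relative to their mean, the duplicates at 25 µg/ml lay further apart for LSS than for FDFT1 or SQLE, and the log2 difference was 0.50 ± 0.060 (adjusted p = 6.94e-04). Its higher duplicate is the library whose deviations followed GC content, and without that library the difference was 0.40.

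Of the demethylation enzymes, MSMO1, CYP51A1 and HSD17B7 had the largest changes of the set at 24 h, while NSDHL changed less than FDFT1, LSS and DHCR7. CYP51A1, the cytochrome P450 that removes the first methyl group of lanosterol and is the human counterpart of the target of azole antifungals, had 3.62 and 3.85 FPKM in untreated cells, 4.93 and 5.46 FPKM at 12.5 µg/ml, and 6.81 and 6.27 FPKM at 25 µg/ml. It was 1.75 times higher at 25 µg/ml than at 0 by the group means, with a log2 difference of 0.67 ± 0.086 (adjusted p = 9.98e-04). MSMO1, the methylsterol oxidase that starts the removal of the next methyl groups, had 28.3 and 32.2 FPKM in untreated cells, 39.1 and 41.4 FPKM at 12.5 µg/ml, and 53.0 and 49.7 FPKM at 25 µg/ml. The gaps between doses were wider than those between duplicates, and the log2 difference was 0.75 ± 0.059 (adjusted p = 9.83e-05). NSDHL, the dehydrogenase that takes off the oxidised carbon, had 22.5 and 20.9 FPKM in untreated cells, 24.9 and 24.6 FPKM at 12.5 µg/ml, and 30.0 and 31.0 FPKM at 25 µg/ml. NSDHL thus stood well apart at 25 µg/ml, with a log2 difference of 0.47 ± 0.049 (adjusted p = 3.62e-04). HSD17B7, the reductase that ends each demethylation round, had 14.3 and 16.6 FPKM in untreated cells, 21.1 and 22.2 FPKM at 12.5 µg/ml, and 25.4 and 24.1 FPKM at 25 µg/ml. For HSD17B7 the step from 0 to 12.5 µg/ml was larger than the step from 12.5 to 25, and the log2 difference between 25 and 0 was 0.65 ± 0.089 (adjusted p = 0.0014).

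The late enzymes finish the ring system. EBP, the sterol isomerase, had 57.2 and 56.8 FPKM in untreated cells, 60.2 and 61.1 FPKM at 12.5 µg/ml, and 69.7 and 72.0 FPKM at 25 µg/ml. Its duplicates were close and its groups did not overlap, but the change was the smallest, with a log2 difference of 0.31 ± 0.075 (adjusted p = 0.0197). The call on EBP was lost when replicate 2 of 25 µg/ml (adjusted p = 0.122), replicate 1 of untreated cells (0.0735) or replicate 2 of untreated cells (0.111) at 24 h was left out. DHCR7, the reductase that is mutated in Smith-Lemli-Opitz syndrome, had 52.6 and 49.7 FPKM in untreated cells, 60.0 and 58.3 FPKM at 12.5 µg/ml, and 70.6 and 73.6 FPKM at 25 µg/ml. DHCR7 changed about as much as LSS and NSDHL, by 0.49 ± 0.041 (adjusted p = 9.83e-05).

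The 24 h result held without the library that followed GC content, when 8 of 9 enzymes were called and EBP was not, and all 9 were called in lane 4 alone and with GC content and length corrected. With the 4 libraries of 25 and 0 µg/ml at 24 h fitted alone, where the spread had few degrees of freedom, 1 of 9 (FDFT1) was called. The sizes moved more than the calls. Over all alternatives the log2 difference ran from 0.37 to 0.53 for DHCR7, from 0.37 to 0.59 for LSS and from 0.25 to 0.33 for EBP. Summed over the 9 enzymes, FPKM was 467 in both untreated libraries, 549 in both libraries at 12.5 µg/ml, and 665 and 662 at 25 µg/ml.

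**Figure D2:**
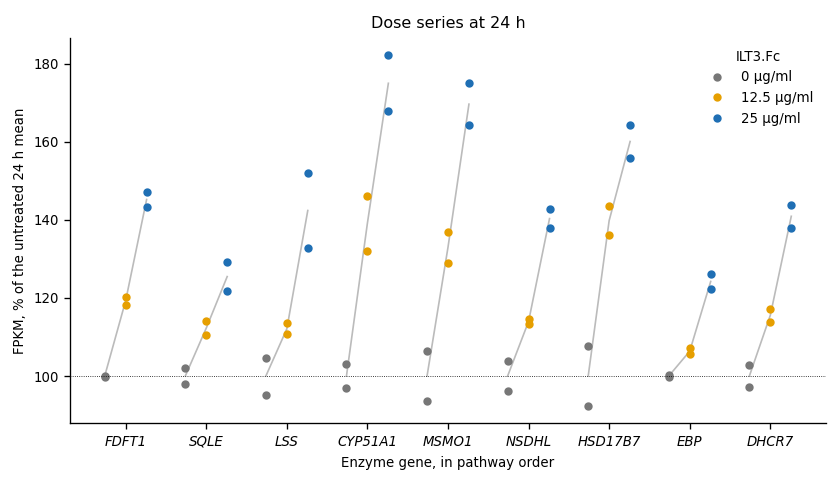
FPKM at 24 h as a percentage of the untreated mean at 24 h (vertical axis, broken above 0) for each enzyme in pathway order (horizontal axis). Points are libraries at 0 (grey), 12.5 (orange) and 25 µg/ml (blue), and grey lines join group means. Each enzyme shows non-overlapping doses, steepest for CYP51A1 and MSMO1 and shallowest for EBP.

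The dose order at 24 h was complete in every enzyme, so that each library at 25 µg/ml lay above both at 12.5 µg/ml and these above both untreated ones. That held for 9 of 9 enzymes and for 10.9% of all genes tested. Set against the effect of 25 µg/ml at 24 h, the log2 difference between 12.5 and 0 µg/ml came to 71.2% for HSD17B7, 57.8% for CYP51A1, 53.9% for MSMO1, 51.0% for SQLE and 47.3% for FDFT1. It came to 42.2% for DHCR7, 38.6% for NSDHL, 32.6% for LSS and 28.5% for EBP. Both effects share the untreated libraries, and the shares carry no test.

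At 12.5 µg/ml the single calls were few. At 24 h MSMO1 was the enzyme called (log2 difference from 0 µg/ml 0.40 ± 0.059, adjusted p = 0.0369), 1 of 9 where 0.025% of all genes were called higher, and 8 of 9 had an unadjusted p under 0.05. The MSMO1 call was lost on leaving out 1 library in 13 of 17 cases, down to a difference of 0.31 without replicate 1 of untreated cells at 24 h, and it was also lost with the replicate block (adjusted p = 0.0623). HSD17B7 differed by 0.46 (adjusted p = 0.113), CYP51A1 by 0.39 (0.146) and FDFT1 by 0.25 (0.0747). At 6 h limma called 0 of 9 (0.0166% of all genes higher), with 6 of 9 at an unadjusted p under 0.05. At 12 h it called 0 of 9 (0.025% of all genes higher), with 2 of 9 at an unadjusted p under 0.05. At 6 h EBP had 75.0 FPKM in replicate 1 of 12.5 µg/ml, its highest value in any library, and 60.4 FPKM in replicate 2, against 60.9 and 58.7 FPKM in untreated cells. That replicate 1 is the library whose deviations followed gene length, and without it the EBP difference was 0.02, against 0.17 with it. No enzyme was called at 6 h without that library or with all libraries in, whereas 4 of 9 were called when replicate 2 was left out and the length-biased library stood alone.

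Averaged over the 3 times, 3 of 9 enzymes were higher at 12.5 than at 0 µg/ml, where 0.166% of all genes were called higher. These were HSD17B7 (log2 difference 0.40, adjusted p = 0.0276), MSMO1 (0.24, 0.0381) and FDFT1 (0.18, 0.0381), and 7 of 9 had an unadjusted p under 0.05. The calls lay near the threshold, since leaving out 1 library at a time left FDFT1 called in 4 of 16 cases, MSMO1 in 5 and HSD17B7 in 7. Without the library that followed gene length they were called at 0.39, 0.23 and 0.16. The untreated 12 h library cannot be left out here.

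At 25 µg/ml the average over all 3 times was higher than at 0 for 8 of 9 enzymes, where 5.47% of all genes were called higher. The log2 differences were 0.54 for HSD17B7, 0.50 for MSMO1, 0.39 for CYP51A1, 0.31 for FDFT1, 0.22 for NSDHL, 0.21 for DHCR7, 0.20 for SQLE and 0.20 for LSS, with adjusted p-values of 5.9e-05 (MSMO1) to 0.00897 (LSS). EBP differed by 0.09 (adjusted p = 0.254), and was called without either library of 12.5 µg/ml at 6 h (adjusted p = 0.0188 in both cases). The enzymes' median was 0.22 and that of all genes 0.02. Without the library that followed GC content the same 8 were called, LSS at 0.17 and HSD17B7 at 0.56. Over all genes the split of calls depended on the scaling, with 657 higher and 481 lower as deposited, 393 and 765 after median centring and 539 and 653 after quantile normalization, but the 8 enzymes were called higher and none lower under each. Within lane 4 (6 and 24 h) the enzymes' differences ran from 0.16 (EBP) to 0.57 (HSD17B7), and FDFT1 was called. Within lane 5 (6 and 12 h) they ran from -0.02 (EBP) to 0.46 (HSD17B7), with LSS at 0.04, and none was called. Without the 24 h libraries, 2 of 9 were called, MSMO1 and HSD17B7.

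Between the doses, MSMO1 (log2 difference 0.26, adjusted p = 0.0143) and DHCR7 (0.14, adjusted p = 0.0484) were higher at 25 than at 12.5 µg/ml over all times. That is 2 of 9 enzymes, where 0.0666% of all genes were called higher. MSMO1 was called and DHCR7 was not, both without the library that followed GC content (MSMO1 0.27, adjusted p = 0.0261) and without the one that followed length (0.27, 0.0165). On leaving out 1 library at a time MSMO1 remained called in 12 of 17 cases and DHCR7 in 2, and with the replicate block DHCR7 was not called (adjusted p = 0.0754).

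The enzymes differed in how far their libraries separated by dose at 6 h, but timing was not compared between enzymes by a test. At 6 h the effect of 25 µg/ml was called in 0 of 9 by limma (0.0583% of all genes higher), with 4 of 9 at an unadjusted p under 0.05. HSD17B7 had 15.9 and 14.6 FPKM in untreated cells, 20.0 and 19.6 FPKM at 12.5 µg/ml, and 22.9 and 19.1 FPKM at 25 µg/ml. Both treated groups of HSD17B7 lay above the untreated one and overlapped each other, and the log2 difference between 25 and 0 µg/ml was 0.43 ± 0.089 (adjusted p = 0.117). MSMO1 had 27.5 and 28.1 FPKM in untreated cells, 32.6 and 31.3 FPKM at 12.5 µg/ml, and 34.1 and 33.6 FPKM at 25 µg/ml. MSMO1 was ordered by dose already at 6 h, with a difference of 0.27 ± 0.059 (adjusted p = 0.128), and passed the threshold only with GC content and length corrected (0.0261) or that correction with the replicate block (0.0394). At the other end, LSS had 44.3 and 44.0 FPKM at 25 µg/ml against 45.1 and 45.1 FPKM in untreated cells, and EBP 61.0 and 58.0 FPKM against 60.9 and 58.7 FPKM. These differences were -0.03 ± 0.060 for LSS and -0.01 ± 0.075 for EBP.

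At 12 h the single untreated library limits every comparison. MSMO1 had 22.7 FPKM in it, 25.7 and 24.4 FPKM at 12.5 µg/ml, and 32.7 and 31.6 FPKM at 25 µg/ml, a difference between 25 and 0 of 0.48 ± 0.073 (adjusted p = 0.0528). HSD17B7 had 13.5 FPKM in the untreated library, 16.9 and 18.7 FPKM at 12.5 µg/ml, and 19.7 and 20.8 FPKM at 25 µg/ml, a difference of 0.55 ± 0.11 (adjusted p = 0.141). FDFT1 had 165 FPKM in the untreated library, 182 and 187 FPKM at 12.5 µg/ml, and 196 and 203 FPKM at 25 µg/ml, a difference of 0.27 ± 0.053 (adjusted p = 0.141). These enzymes were ordered by dose, as were SQLE, LSS and NSDHL, which is 6 of 9 where 9.01% of all genes were. Limma called 0 of 9 higher (0.0333% of all genes), with 6 of 9 at an unadjusted p under 0.05. MSMO1 lay near the threshold, and was called without any 1 of the libraries of 12.5 µg/ml at 6 h (adjusted p = 0.0308 and 0.0315) or of untreated cells at 24 h (0.0208 and 0.0207), while FDFT1 was called without either library of 12.5 µg/ml at 6 h (0.0264). EBP differed by -0.03 at 12 h. MSMO1 was the enzyme ordered by dose at all 3 times, 1 of 9 where 0.175% of all genes were, and CYP51A1 joined it at 6 h, 2 of 9 where 1.23% of all genes were.

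**Figure D3:**
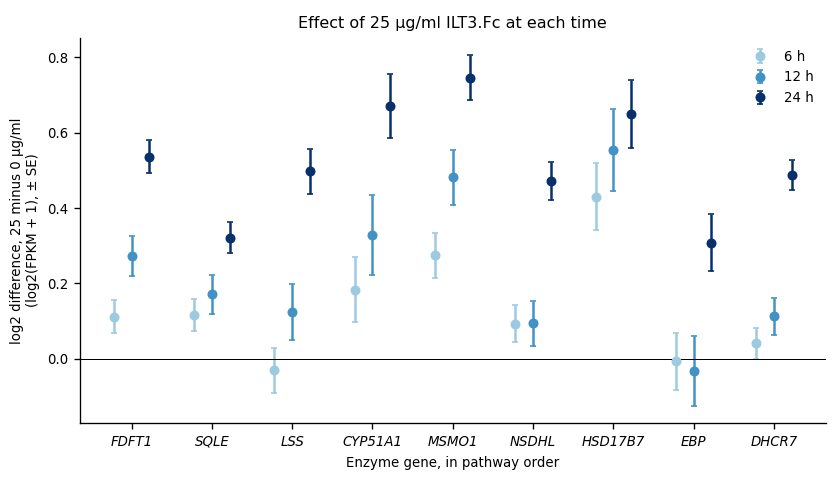
Log2 difference between 25 and 0 µg/ml (vertical axis, log2(FPKM + 1) scale) for each enzyme in pathway order (horizontal axis) at 6, 12 and 24 h, from light to dark blue. Bars are the standard error of the limma fit. HSD17B7 has the largest effect at 6 h (0.43) and reaches 0.65 at 24 h, while LSS, EBP and DHCR7 lie near 0 at 6 h and clear of it at 24 h.

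The change between times was itself tested. The effect of 25 against 0 µg/ml was larger at 24 h than at 6 h in 5 of 9 enzymes, where 2.35% of all genes were called so. The effects at 24 and 6 h were 0.50 and -0.03 for LSS, 0.75 and 0.27 for MSMO1, 0.49 and 0.04 for DHCR7, 0.54 and 0.11 for FDFT1, and 0.47 and 0.09 for NSDHL. The differences between them were 0.53 ± 0.085 for LSS (adjusted p = 0.0166), 0.47 ± 0.084 for MSMO1 (0.0182), 0.45 ± 0.057 for DHCR7 (0.013), 0.42 ± 0.061 for FDFT1 (0.013) and 0.38 ± 0.070 for NSDHL (0.0207). CYP51A1 (0.49 ± 0.12, adjusted p = 0.0571), EBP (0.31 ± 0.11, 0.12), SQLE (0.21 ± 0.059, 0.081) and HSD17B7 (0.22 ± 0.13, 0.342) did not pass. HSD17B7 had effects of 0.65 at 24 h and 0.43 at 6 h, and a larger effect at 24 h was not detectable for it. Over all alternatives the difference between the effects ran from 0.27 to 0.49 for DHCR7 and from 0.37 to 0.62 for LSS. It ran from 0.38 to 0.56 for MSMO1, from 0.37 to 0.45 for FDFT1 and from 0.31 to 0.43 for NSDHL. For DHCR7 the lowest value on leaving out 1 library was 0.405, so its 0.27 came from another kind of alternative. Calls were lost under 4 of 29 alternatives for DHCR7, 6 for FDFT1, 7 for MSMO1, and 8 each for LSS and NSDHL. The GC trend of the libraries differed between doses along this same contrast. On leaving out 1 library the difference ran from 0.43 to 0.62 for LSS and from 0.09 (without replicate 2 of 25 µg/ml at 6 h) to 0.34 (without replicate 1 of it) for HSD17B7, and the calls depended on single libraries. Without replicate 2 of 25 µg/ml at 24 h, the library that followed GC content, DHCR7 was the enzyme called (0.42, adjusted p = 0.0463). Called were 0 of 9 without replicate 2 of 25 µg/ml at 6 h, 2 of 9 without replicate 1 of it, 1 of 9 without either untreated 6 h library or replicate 2 of 25 µg/ml at 24 h, 2 of 9 without replicate 2 of untreated cells at 24 h, and 8 of 9 without either library of 12.5 µg/ml at 6 h. In lane 4 alone, with 1 library for each 6 h group, the differences were 0.52 for LSS, 0.45 for MSMO1, 0.47 for DHCR7, 0.41 for FDFT1 and 0.36 for NSDHL, and none was called.

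Within a dose, the enzymes took different courses over time. In untreated cells the levels at 24 h were close to those at 6 h for most. LSS was the exception, with 39.3 and 35.7 FPKM at 24 h against 45.1 and 45.1 FPKM at 6 h, and it fell by 0.26 on the log2 scale (adjusted p = 0.0491), 1 of 9 where 1.77% of all genes were called lower. That call on LSS held in 5 of 17 cases when 1 library was left out, and not in lane 4 alone (-0.26, adjusted p = 0.394) or with the replicate block (0.0639). At 12.5 µg/ml, 3 of 9 enzymes were higher at 24 than at 6 h, where 2.21% of all genes were called higher. They were CYP51A1 (0.36, adjusted p = 0.0348), MSMO1 (0.32, 0.0138) and DHCR7 (0.32, 0.00311), and CYP51A1 remained called in 8 of 17 cases on leaving out 1 library, MSMO1 in 16 and DHCR7 in 17. Without the library that followed gene length, CYP51A1 was not called (0.34, adjusted p = 0.115) and FDFT1 was (0.16, 0.0449).

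At 25 µg/ml, 8 of 9 were higher at 24 than at 6 h, where 11.8% of all genes were called higher. The differences were 0.59 for DHCR7 (adjusted p = 4.79e-05), 0.59 for MSMO1, 0.57 for CYP51A1, 0.39 for FDFT1, 0.37 for NSDHL, 0.26 for LSS, 0.25 for EBP (0.0409) and 0.22 for SQLE. HSD17B7 differed by 0.23 (adjusted p = 0.0921). Without the library that followed GC content, LSS differed by 0.17 (adjusted p = 0.0925) and EBP by 0.23 (0.182), and neither was called. EBP remained called in 3 of 17 cases on leaving out 1 library, LSS in 14 and SQLE in 16, and HSD17B7 was called without replicate 1 of 25 µg/ml at 6 h (0.36, adjusted p = 0.0413). In lane 4 alone FDFT1 (0.37) and DHCR7 (0.57) were called, and the other 7 differed by 0.11 (HSD17B7) to 0.58 (MSMO1).

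The 12 h libraries were the lowest. In untreated cells the 12 h library of each of the 9 enzymes lay below both 6 h libraries, as for 44% of all genes, and the median over the enzymes was -15.7%, against -1.31% over all genes. At 12.5 µg/ml it was again 9 of 9 (25.1% of all genes), with a median of -20.0%, against -1.27% over all genes. At 25 µg/ml it was 7 of 9 (21.7% of all genes), all but CYP51A1 and HSD17B7, with a median of -7.74%, against 0.129% over all genes. Compared with the 6 h library of the same lane, the counts were again 9, 9 and 7 of 9, where 56.7%, 39.7% and 37.2% of all genes lay lower. Summed over the 9 enzymes, FPKM in untreated cells was 476 and 472 at 6 h, 395 at 12 h, and 467 in both libraries at 24 h. At 25 µg/ml the sums were 517 and 500.4 at 6 h, 455 and 462 at 12 h, and 665 and 662 at 24 h. This 12 h dip carries no test of its own, and no 24 h library shared a lane with the 12 h ones.

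Across the 17 libraries the enzymes varied together. Pearson correlations of log2(FPKM + 1) for the 36 pairs ran from 0.532 to 0.972, with a median of 0.839. FDFT1 followed the mean of the other enzymes most closely (0.991), and HSD17B7 (0.744), EBP (0.781) and LSS (0.819) least. The 6 genes outside the set with the most similar course were HMGCS1 (0.965), IDI1 (0.965), C14orf1 (0.960), C6orf223 (0.951), INSIG1 (0.951) and C10orf26 (0.941). These values describe 17 libraries that share doses and times and carry no p.

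The rest of sterol synthesis was read from fixed lists. Of the 10 genes listed as other sterol steps and electron donors, 9 were tested, and at 24 h 6 were higher and 1 lower at 25 than at 0 µg/ml, where 10.7% of all genes were higher and 5.76% lower. The list's median was 0.24 and that of all genes 0.04. C14orf1 (ERG28), which tethers the demethylation enzymes to each other, had 39.6 and 36.1 FPKM in untreated cells, 45.2 and 41.8 FPKM at 12.5 µg/ml, and 54.4 and 51.2 FPKM at 25 µg/ml (25 against 0, 0.47, adjusted p = 9.98e-04). Its groups kept apart, as did those of the enzymes it holds. SC5DL, the desaturase between EBP and DHCR7, differed by 0.26 (adjusted p = 0.0354), the reductase POR that feeds electrons to CYP51A1 and SQLE by 0.24 (0.0436), and CYB5R3, which feeds cytochrome b5, by 0.28 (0.012). CYB5A (0.20) and CYB5B (0.03), the cytochromes b5 themselves, were not called, and C5orf4 fell below the filter. Without replicate 2 of 25 µg/ml at 24 h, the library that followed GC content, CYB5R3, POR, SC5DL and TM7SF2 were not called, while C14orf1 and LBR were.

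The sterol reductases that act after CYP51A1 went opposite ways. TM7SF2 had 9.70 and 9.20 FPKM in untreated cells, 10.1 and 11.1 FPKM at 12.5 µg/ml, and 12.2 and 15.9 FPKM at 25 µg/ml at 24 h (25 against 0, 0.51, adjusted p = 0.0131). LBR, the lamin B receptor of the inner nuclear membrane, which has the same reductase activity, had 101 and 107 FPKM in untreated cells, 94.3 and 98.3 FPKM at 12.5 µg/ml, and 86.5 and 82.1 FPKM at 25 µg/ml. LBR was the member of the list that fell, by 0.31 on the log2 scale (adjusted p = 0.00115), and it was ordered by dose the other way round. Over all times the list had 2 higher (SC5DL 0.22 and C14orf1 0.21), 1 lower (LBR -0.15) and 6 not called.

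**Figure D4:**
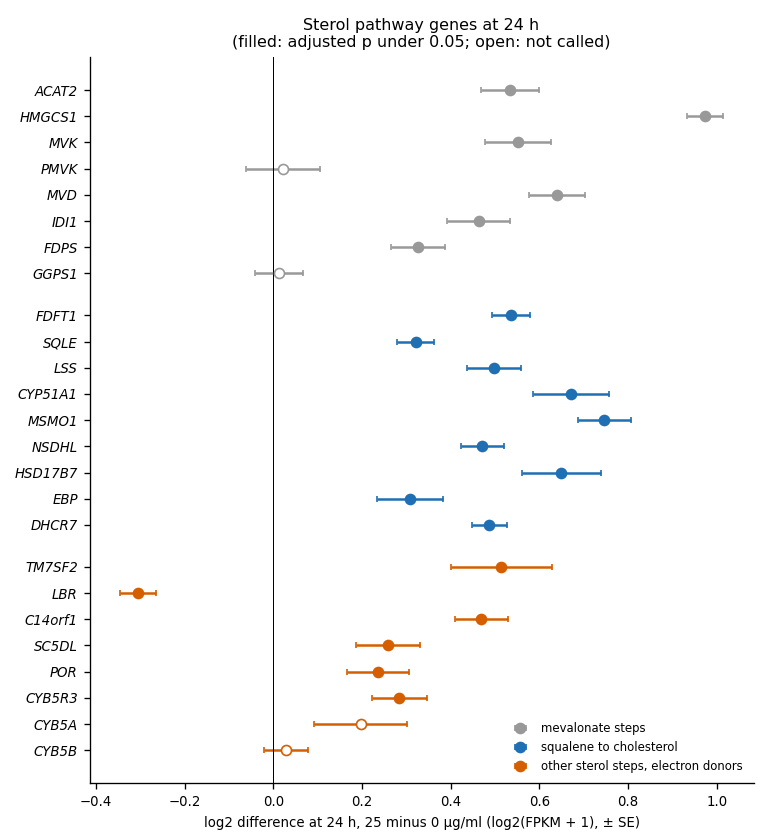
Log2 difference at 24 h between 25 and 0 µg/ml (horizontal axis, log2(FPKM + 1) scale) for mevalonate steps (grey), the 9 squalene to cholesterol enzymes (blue) and other sterol steps with electron donors (orange). Bars are the standard error of the limma fit and filled points are called. All 9 blue points are filled and right of 0, and LBR is the only point left of it.

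The steps before squalene and the control genes share all libraries with the enzymes above. Of 9 mevalonate genes, 6 were higher at 25 than at 0 µg/ml over all times, where 5.47% of all genes were, and none lower. The list's median was 0.23 and that of all genes 0.02. HMGCS1, HMG-CoA synthase, led with 0.66, and MVD and IDI1 differed by 0.23 and 0.26. At 24 h HMGCS1 had 65.2 and 69.2 FPKM in untreated cells, 96.2 and 96.8 FPKM at 12.5 µg/ml, and 136 and 130.0 FPKM at 25 µg/ml, a larger change by the group means (1.98 times) than that of any of the 9 enzymes. Of 13 control and uptake genes, 11 were tested and 4 were higher, namely INSIG1, which holds SREBP back (0.29), NPC1 (0.17), STARD4 (0.22) and INSIG2 (0.12), with the same 5.47% over all genes. The INSIG2 call was lost under 14 of 31 alternatives, that of STARD4 under 9, of NPC1 under 7 and of INSIG1 under 2. Of 6 storage and efflux genes, 5 were tested, SOAT1, which esterifies cholesterol, was higher (0.13, lost under 10 of 31 alternatives) and ACAT1 lower (-0.15, lost under 8), where 5.47% of all genes were higher and 4% lower.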

How the data were processed

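RNA-seq of 17 Jurkat libraries was used. The authors deposited 1 table of FPKM values, with a column per library. TopHat2 2.1.0 is named per the submitters' processing notes. For the quantifier, genome build, annotation and strand setting, the answer is not given in the sources used here. FPKM keeps no counts, so absolute depth is unknown and no count test was run. None of the 45 repeated symbols was one of the enzymes, and each was reduced to its most abundant line.

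From the deposited FPKM, the 12015 genes with a mean of at least 1 were tested on log2(FPKM + 1) with limma 3.58.1 in R 4.3.3. The fit had 1 mean per dose and time over all 17 libraries, 8 residual degrees of freedom and a variance trend, so that the single untreated 12 h library was assumed to vary like the rest. Tests were two-sided, and each of the 13 comparisons had its own Benjamini-Hochberg adjustment over every gene tested, with calls under 0.05. The calling was tested on simulated data. Effects over all times average 6, 12 and 24 h. The enzymes, lists and tests were chosen with earlier results of these data known. The naming rule took all enzymes and other sterol steps, and from each other list up to 4 called genes with the smallest p over all times. A few counted genes are left unnamed and not reported here. Alternatives changed the pseudocount (0.1), the filter (none, or a mean of 5), the scaling (median centring, quantile), the trend, the lane, the samples fitted, the replicate block, and a loess correction (span 0.3) for GC content and length from GENCODE v29, matched for 92.6% of genes tested and all 9 enzymes.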

Additional observations from a re-analysis of the deposited data

Results flagged for a closer look

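The effect of 25 against 0 µg/ml differed between 24 h and 6 h, by a test of that difference, in 5 of the 9 enzymes. The difference (24 h effect minus 6 h effect, log2 scale, limma adjusted p) was 0.42 for FDFT1 (0.013), 0.53 for LSS (0.0166), 0.47 for MSMO1 (0.0182), 0.38 for NSDHL (0.0207) and 0.45 for DHCR7 (0.013). All 24 h libraries ran in lane 4, and each 6 h group had 1 library in lane 4 and 1 in lane 5. The GC trend also differed between these doses, in opposite directions at 6 and 24 h. Its Spearman values at 6 h were 0.12 and 0.07 in untreated cells and -0.23 and -0.28 at 25 µg/ml. At 24 h they were 0.03 and -0.37 in untreated cells and 0.13 and 0.56 at 25 µg/ml.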

How the results depend on the processing

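No call on the 9 enzymes reversed under the alternatives run. For 25 against 0 µg/ml at 24 h, 249 of 260 values kept their side of the threshold, and over all times 254 of 278. The counts below are enzymes called higher of 9, with the cause of each change not tested. With only the groups compared, the count was 1 for 25 against 0 µg/ml at 24 h, 0 for 12.5 against 0 over all times, 1 for 25 against 12.5, 0 for 12.5 against 0 at 24 h, 2 for the 24 h minus 6 h difference, and 0 and 1 for 24 against 6 h at 12.5 and 25 µg/ml. In lane 4 alone it was 1 for 25 and 1 for 12.5 against 0 over both times, 0 for 25 against 12.5, 0 for 12.5 against 0 at 24 h, 0 for the 24 h minus 6 h difference, and 1 and 2 for 24 against 6 h at 12.5 and 25 µg/ml. In lane 5 alone all 3 dose comparisons gave 0. Without the 12 h libraries, 12.5 against 0 and 25 against 12.5 gave 0, and without the 24 h libraries 25 against 0 gave 2 and the other dose comparisons 0.

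For 12.5 against 0 µg/ml at 24 h the count was 0 with no filter, median centring, no variance trend or the replicate block, and 2 with quantile normalization. For 25 against 0 at 12 h it was 1 with no filter or a mean of at least 5 FPKM and 2 with quantile normalization. Over all times 12.5 against 0 gave 1 with median centring and 0 with no variance trend, and 25 against 12.5 gave 1 with median centring, no variance trend, lane as a covariate or the replicate block. With GC content and length corrected, 25 against 12.5 gave 5, 25 against 0 gave 1 at 6 h and 2 at 12 h, 12.5 against 0 at 24 h gave 5, and 24 against 6 h at 0 µg/ml gave 1. With that correction and the replicate block, the last 4 of these gave 1, 2, 2 and 1. CYP51A1 was not tested at a mean of at least 5 FPKM.

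Leaving out 1 library gave 8 to 9 for 25 against 0 over all times and at 24 h, 0 to 6 for 12.5 against 0 and for 25 against 12.5 over all times, 0 to 2 for 25 against 0 at 12 h, 0 to 4 and 0 to 2 for 12.5 against 0 at 6 and 24 h, 0 to 8 for the 24 h minus 6 h difference, and 1 to 3 and 5 to 8 for 24 against 6 h at 12.5 and 25 µg/ml. Without the untreated 12 h library, the comparisons of 25 and of 12.5 against 0 over all times and at 12 h could not be given. Deviations of same-numbered libraries correlated at -0.183 to 0.128, 2 of 28 pairs over 0.1. These pairs also join groups of different times, so low values cannot exclude pairing within a time. At 6 h the replicate number went with the lane at every dose. With the replicate block 8 enzymes were called for 25 against 0 over all times, 9 at 24 h, 2 for 12.5 against 0 over all times and 5 for the 24 h minus 6 h difference. With 2 libraries per group and no read counts, small differences at 6 and 12 h were not detectable.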
